A study of Rattus norvegicus with 6 samples.

Results

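The genes described are 29 genes of cholesterol synthesis, its control, and cholesterol storage and oxysterol formation. They were listed by name for their known roles, with earlier results of these data known. All 29 were found in each of the 6 gene tables of the series, among 28615 shared names in the 4 time-course libraries and 25054 names in the 2 injected libraries. By role they fall into 7 enzymes of the mevalonate steps, 11 enzymes of the later sterol steps, 6 control genes and 5 genes of storage, hydrolysis, transport and oxysterol formation. The 18 enzymes together are called the synthesis genes.

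Single spinal cord cells of SD rats, 6 to 8 weeks old, were profiled with droplet libraries that count unique molecular identifiers (UMIs). In the time course, cord crushed at thoracic level 10 was taken at day 1, 3 or 7, and intact cord stands beside it. The injection experiment holds cord given the drug that the labels write as MPSS, at 10 mg/ml in PBS, and cord given PBS alone. Both were injured, injected 3 days later at 5 sites of 1 µL and collected 2 weeks after injury. The labels give no transgene or deleted gene for any group. They name 5 animals per condition, of which a 5-mm section was taken from the centre of the lesion, and each group is 1 library. One label of the intact library also names the crush. Its group was taken from its title. The titles call both injected libraries re-analyzed.

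Cholesterol is built from acetyl-CoA through mevalonate and isoprenoid units to squalene, which is closed into lanosterol and trimmed stepwise to cholesterol. When sterol is scarce, SCAP carries the SREBP factors from the endoplasmic reticulum to be cut and to switch on these enzymes together, and INSIG proteins hold SCAP back when sterol is plentiful. In the spinal cord cholesterol is mostly in myelin, made by oligodendrocytes, and phagocytes that clear myelin debris store it as ester, export it or turn it into oxysterols, which switch on the LXR receptors.

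Sequence of the promoters is shown first because the synthesis genes are known to be switched on together. SREBP acts with the factor NF-Y, which binds CCAAT boxes. In the RefSeq promoter table of rat build GRCr8, which runs from 250 bases before to 50 after each gene's start, 25 of the 29 genes had an entry. Pmvk, Fdft1, Sqle and Stard4 are named only. The box CCAAT, read on both strands, was present in 19 of these 25 genes and in 12 of the 15 synthesis genes with an entry, against 37.5% of all 33469 promoters. One exact sterol regulatory word, TCACNCCAC, was in none of the 25 genes and in 1.12% of all promoters, and nothing follows from that about SREBP. Hmgcs1, Idi1 and Msmo1 are printed as examples of promoters that hold the box, from genes past 2-fold higher in day 1 ependymal cells. They do not stand for all such genes, since Cyp51, also past 2-fold there, has an entry with 0 boxes. Each line gives the 250 bases before the start, 5′ to 3′, with CCAAT or its reverse complement ATTGG in capitals. The Hmgcs1 stretch is chr2:53382054-53382303 on the plus strand, with 2 boxes, the Idi1 stretch is chr17:66547525-66547774 on the minus strand, with 2 boxes, and the Msmo1 stretch is chr16:29746863-29747112 on the plus strand, with 3 boxes.
Hmgcs1: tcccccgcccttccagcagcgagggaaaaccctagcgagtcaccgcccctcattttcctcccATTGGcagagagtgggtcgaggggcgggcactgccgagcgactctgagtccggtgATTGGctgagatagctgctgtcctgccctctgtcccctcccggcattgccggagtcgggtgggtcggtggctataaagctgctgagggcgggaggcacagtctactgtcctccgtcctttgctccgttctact
Idi1: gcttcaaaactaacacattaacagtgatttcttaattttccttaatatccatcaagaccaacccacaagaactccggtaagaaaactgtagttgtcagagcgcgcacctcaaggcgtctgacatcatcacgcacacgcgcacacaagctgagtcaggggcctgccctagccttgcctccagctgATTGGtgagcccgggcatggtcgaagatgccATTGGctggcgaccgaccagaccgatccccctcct
Msmo1: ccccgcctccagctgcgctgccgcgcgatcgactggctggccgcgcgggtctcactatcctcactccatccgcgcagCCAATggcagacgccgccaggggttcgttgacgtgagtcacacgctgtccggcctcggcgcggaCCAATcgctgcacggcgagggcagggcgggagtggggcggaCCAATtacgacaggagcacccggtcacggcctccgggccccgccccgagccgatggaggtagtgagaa

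The libraries held 1377 to 9263 cells after filtering, with median depths of 3090 UMIs per cell in intact cord, 5339.5 at day 1, 6648 at day 3 and 3617 at day 7, and of 10417 in the MPSS library and 10292 in the PBS library. Each cell was assigned on its own to a cell class from marker genes, and 3.30 to 9.52% of cells that passed for 2 unrelated classes were left out. Cell class names below mean these gates. Of 1073 phagocytes with MPSS, 306 were microglia and 431 macrophages, and of 731 with PBS 228 and 297. Of the 867 of intact cord these were 804 and 58, and of the 4441 of day 1, 1514 and 2659. Day 3 held 3086 and 3458 of 6681, and day 7 held 4134 and 879 of 5113. The rest were in neither class. Levels over all phagocytes thus also carry a change in this mix between days, whose part was not tested. Pairs of time-course libraries shared 20 to 91 cell barcodes, the MPSS and PBS libraries 5, and pairs across the experiments 5 to 39. Levels are counts per 1000000 UMIs (CPM) over all cells of a class, and bracketed ranges are 95% intervals that cover counting error only. With 1 library per group there is no replicate check and no test between groups, and all differences below are between libraries. A gene is counted as higher or lower from 2-fold on, where both sums together hold at least 20 UMIs. The time-course tables carry gene names of mouse form (7652 of them are Gm, Rik or ENSMUSG names) although the labels give rat, and the injected tables carry rat identifiers. Levels are therefore never set across the 2 experiments.

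The gates held their own markers, with exceptions. Among microglia the summed level of 12 microglial markers was 19869 CPM in intact cord, 4950 at day 1, 10389 at day 3 and 9222 at day 7, while that of 14 macrophage/monocyte markers was 1034, 1877, 5616 and 11745 CPM. By day 7 the second sum was thus above the first, and in the injected libraries too it was above (2062 against 1258 CPM with MPSS and 2572 against 1315 CPM with PBS), so a microglial name is weakest there. Oligodendrocyte precursors showed all 10 of their markers, at 4773 to 7661 CPM in the time course. Mature oligodendrocytes were present only in the injected libraries, since 1 cell in all passed that gate in the time course. In those libraries their 8 markers summed to 16876 CPM with MPSS and 17776 CPM with PBS.

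The synthesis genes were high in oligodendrocyte precursors and oligodendrocytes, in Schwann cells, and in the few pericytes and smooth muscle cells of day 1. In oligodendrocyte precursors their summed level was 1599 CPM (1325 to 1914) in intact cord, 2360 (2214 to 2513) on day 1, 1760 (1662 to 1863) on day 3 and 1642 (1518 to 1774) on day 7, from 24, 51, 127 and 149 cells. Phagocytes, that is microglia, macrophages and cells that pass for a phagocyte but for neither of these, stood at 301 (282 to 321), 303 (297 to 309), 199 (195 to 202) and 189 (183 to 194) CPM. The precursors were thus 5.31, 7.78, 8.86 and 8.70 times above the phagocytes of their own library, with 15 to 17 of the 18 genes above in each. Endothelial cells lay 1.53 to 2.04 times and ependymal cells 1.27 to 2.82 times above phagocytes. Fibroblasts of the time course read 1.10 times the phagocytes in intact cord (29 cells) and 1.10 at day 1 (133 cells). They read 3.22 (2.91 to 3.55) at day 3, with 18 of 18 genes above from 70 cells, and 2.12 at day 7 from 77 cells. The 24 intact precursors are too few for a comparison by time. In the MPSS library 43 precursors read 700 CPM (610 to 799), 2.77 times the phagocytes, with 14 of 18 genes above, and 7 of 9 of their markers seen at 2262 CPM in all. The share of all genes above phagocytes was not taken for any class, so these counts of genes have no background beside them.

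Single enzymes of the precursors show the breadth. Fdps, which makes farnesyl diphosphate, stood at 215, 462, 202 and 226 CPM from intact cord to day 7, and Msmo1, which removes methyl groups from lanosterol products, at 349, 373, 187 and 228 CPM. The intact values rest on 16 and 26 UMIs. Insig1, which holds the SREBP escort back, read 444, 228, 69.2 and 147 CPM. Among the injured days, Insig1 and Msmo1 were lowest at day 3 and Fdps was highest at day 1. Ch25h, the oxysterol-forming hydroxylase, had 0 UMIs in precursors at days 1 and 3, and 1 UMI each in intact cord and at day 7.

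In the injected cords oligodendrocytes and Schwann cells stood well above phagocytes. Oligodendrocytes reached 1331 CPM (1300 to 1363) with MPSS and 1667 (1619 to 1716) with PBS, 5.26 and 6.10 times the phagocytes of the same library. Schwann cells, the myelin cells of peripheral nerve, reached 1538 CPM (1432 to 1650) from 91 cells with MPSS and 2535 (2317 to 2768) from 35 cells with PBS, but 1 cell held 20.4% of these UMIs with MPSS and 35.9% with PBS. Fibroblasts read 336 and 333 CPM, beside 253 and 273 CPM in phagocytes. Pericytes and smooth muscle cells at day 1 read 2919 CPM (2528 to 3354), 9.62 times the phagocytes, from 33 cells of which 1 gave 20.1% of the UMIs, and 521 CPM at day 3.

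**Figure D1:**
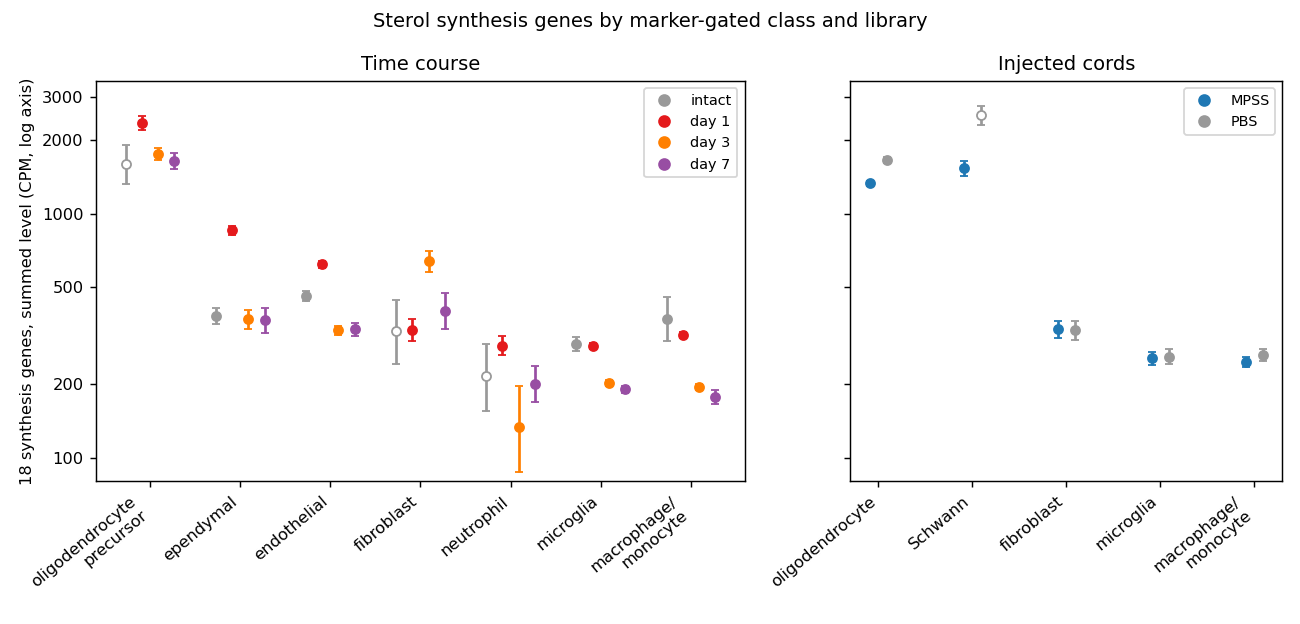
Summed level of the 18 synthesis genes in CPM on a log axis, by cell class and library, with the time course on the left and the injected cords on the right. Bars are 95% counting intervals and open circles mark classes under 50 cells; in the time course precursors lie between 1599 and 2360 CPM, while microglia lie between 191 and 293 CPM.

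Cells of the ependymal gate, named for cells that line the central canal, had higher synthesis genes at day 1 and levels near intact afterwards. At day 1 this gate held more astrocyte than ependymal marker counts (5101 against 3666 CPM), so the ependymal name is weak there. The synthesis genes of the gated cells summed to 856 CPM (821 to 892) at day 1. In intact cord they summed to 382 CPM (354 to 411), a ratio of 2.24 (2.06 to 2.45). Days 3 and 7 read 369 and 365 CPM, ratios of 0.967 (0.858 to 1.09) and 0.956 (0.832 to 1.10). At day 1, 6 of 17 measured synthesis genes were at least 2-fold higher and 0 lower, against 12.6% higher and 16.0% lower of all 10443 genes tested. Of the 17, 15 were above intact, with a median log2 ratio of 0.88, against -0.14 over all genes. At days 3 and 7, 1 of 14 measured enzymes was higher and 0 lower, against 7.05 and 5.54% higher and 7.85 and 7.46% lower of all genes; that gene was Lss, at 18.7 and 17.1 CPM, against 8.31 CPM in intact cord.

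Of the 7 mevalonate genes, 3 were past 2-fold higher. Hmgcs1, the synthase that makes HMG-CoA, stood at 130 CPM at day 1 and 28.3 CPM in intact cord, with 35.9 and 39.2 CPM at days 3 and 7. Its ratio at day 1 was 4.60 (3.42 to 6.30), and after thinning each cell to 1000 UMIs it was found in 13.1% of day 1 cells and 2.33% of intact cells (45.2 and 8.05% unthinned). Idi1, which isomerises isopentenyl diphosphate, stood at 58.5 CPM at day 1 and 11.1 CPM in intact cord, a ratio of 5.28 (3.30 to 8.89). Fdps stood at 74.4 and 27.1 CPM. The day 1 library alone was high for all 3, since days 3 and 7 lay within 1.5-fold of intact.

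Of the sterol steps, Fdft1, squalene synthase, read 81.5 CPM at day 1 and 19.4 CPM in intact cord. Cyp51, the lanosterol demethylase, read 30.2 and 7.20 CPM, and Msmo1 read 194 and 65.9 CPM. These 3 were the other enzymes past 2-fold. Sqle, the squalene epoxidase, was already at 68.1 CPM in intact cord and read 91.7 CPM at day 1, and Ebp, a sterol isomerase, read 48.3 CPM at day 1 and 39.9 CPM in intact cord. Acat2 and Mvk, at the start of the pathway, read 24.9 and 23.0 CPM at day 1, against 18.8 and 16.1 CPM in intact cord. Pmvk read 28.7 CPM at day 1 and 28.8 CPM in intact cord, a difference within counting error.

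Control and storage genes of ependymal cells went both ways at day 1. Insig1, itself switched on by SREBP, read 86.4 CPM at day 1 and 40.4 CPM in intact cord, and Scap, the escort, 32.1 and 15.5 CPM. Srebf1, which encodes the SREBP that mainly serves fatty acid synthesis, was lower at 40.4 CPM, against 95.3 CPM in intact cord, while Srebf2, the form that mainly serves cholesterol, read 54.3 and 39.3 CPM. Nceh1, which splits cholesterol esters, read 38.5 CPM at day 1 and 95.8 CPM in intact cord, and read 50.7 and 42.9 CPM at days 3 and 7. Ch25h read 50.2 CPM at day 1 and 7.20 CPM in intact cord. Mylip was past 2-fold lower, with 2.64 CPM at day 1 and 7.20 CPM in intact cord, from 7 and 13 UMIs.

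The day 1 ependymal gate differed in its markers, and other cells cannot be told apart here from the same cells changed. Its 10 ependymal markers summed to 3666 CPM, against 10613 CPM in intact cord, while 11 astrocyte markers summed to 5101 CPM, against 949 CPM in intact cord, with Slc7a10 at 0 in both and Gjb6 at 0 at day 1. Under a stricter gate, with 5 or more ependymal and 3 or fewer astrocyte markers per cell, the synthesis sum was 837 CPM in 137 day 1 cells and 377 CPM in 487 intact cells, a ratio of 2.22 (1.98 to 2.48). That gate held 2813 CPM of ependymal markers at day 1, against 10704 CPM in intact cord. At day 1 this was below the 3666 CPM of the wider gate. The stricter gate still held 2767 CPM of astrocyte markers at day 1, against 799 CPM in intact cord. The part of these markers in the result was not tested. With TMM scaling, which moved day 1 by 0.18 on the log2 scale, 9 synthesis genes were past 2-fold higher, against 15.3% of all genes.

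**Figure D2:**
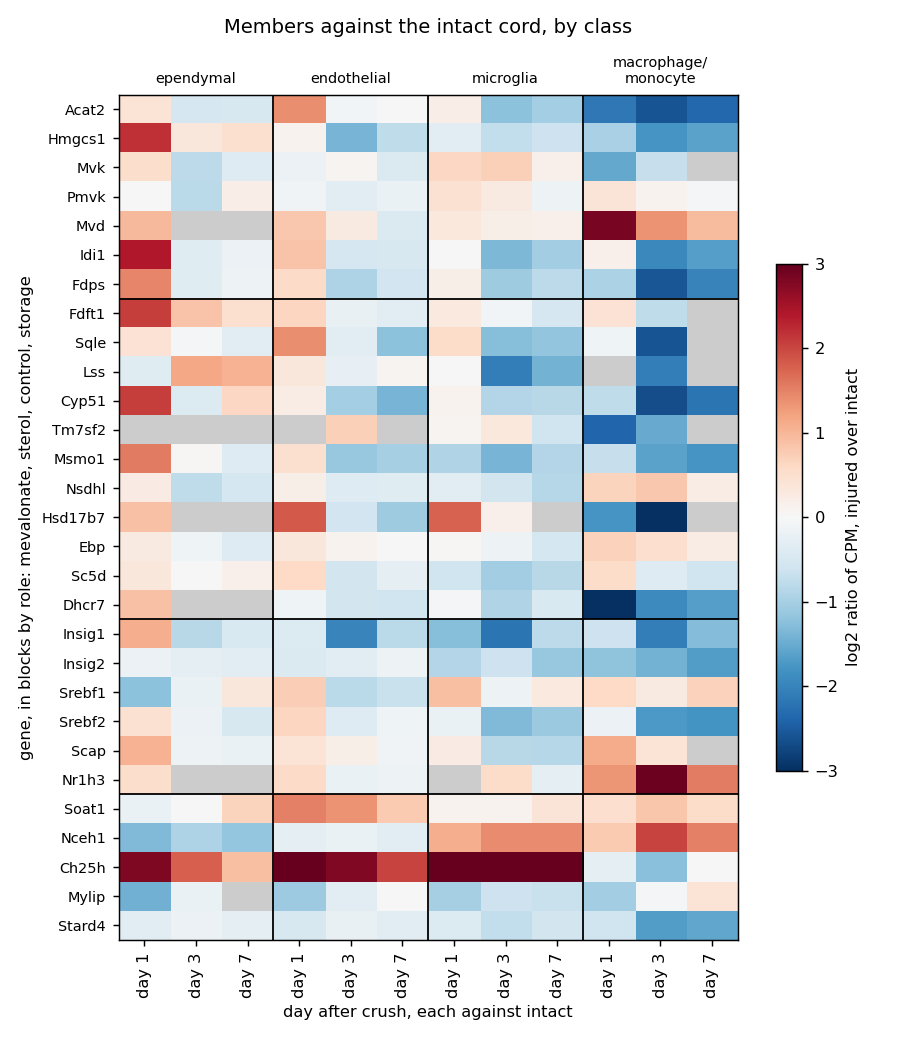
Log2 ratio of CPM of each of the 29 genes (rows) against intact cord at days 1, 3 and 7 in ependymal cells, endothelial cells, microglia and macrophages (column blocks). Grey marks fewer than 20 UMIs over both sums and the colour scale ends at 3 either way; the day 1 ependymal column is mostly positive and the day 3 phagocyte columns mostly negative among the enzymes.

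Endothelial cells of vessels showed higher synthesis genes at day 1 and lower ones afterwards. Their sum was 461 CPM (440 to 483) in intact cord, 620 (599 to 641) on day 1, 333 (319 to 347) on day 3 and 336 (316 to 357) on day 7. The ratios to intact were 1.34 (1.27 to 1.42), 0.722 (0.678 to 0.769) and 0.729 (0.675 to 0.788). At day 1, 3 of 17 measured enzymes were at least 2-fold higher and 0 lower, against 11.9% higher and 11.8% lower of all genes, and 14 were above intact with a median log2 ratio of 0.47, against -0.048 over all genes. At day 3, 0 of 18 were higher and 3 lower, against 6.59 and 7.93% of all genes, and at day 7, 0 of 17 and 3, against 3.95 and 5.58%. Median log2 ratios were -0.37 and -0.44 at days 3 and 7, against -0.20 and -0.19 over all genes.

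The day 1 genes were Acat2, Sqle and Hsd17b7. Sqle stood at 10.0 CPM in intact cord, 26.3 at day 1, 8.01 at day 3 and 4.27 at day 7. Acat2, which joins acetyl-CoA units, stood at 12.4, 32.7, 11.7 and 12.5 CPM. Hsd17b7, a ketoreductase of the sterol steps, stood at 4.12, 14.8, 2.77 and 1.97 CPM, the last from 6 UMIs. All 3 were highest at day 1, and Acat2 was back at its intact level by day 3.

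At day 3 Hmgcs1, Cyp51 and Msmo1 were the genes past 2-fold lower. Hmgcs1 stood at 38.6 CPM in intact cord, 41.8 at day 1, 14.8 at day 3 and 22.7 at day 7, and Msmo1 at 53.6, 74.3, 24.5 and 26.9 CPM. Cyp51 stood at 20.9, 24.5, 10.3 and 7.88 CPM. Ebp, with 63.6, 80.5, 68.3 and 62.7 CPM, and Pmvk, with 69.3, 64.8, 54.4 and 60.1 CPM, stayed within 1.5-fold of intact. Insig1 was low after injury with 74.5, 55.9, 18.8 and 42.7 CPM, a ratio of 0.252 (0.203 to 0.313) at day 3. With TMM, which moved days 1, 3 and 7 by 0.10, 0.22 and 0.17, 3 enzymes were past 2-fold higher at day 1, 1 lower at day 3 and 2 lower at day 7. Of all genes, 13.5% were then higher at day 1, and 4.78 and 3.66% lower at days 3 and 7.

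Ch25h, whose product is a secreted oxysterol that also damps SREBP, had the highest ratio to intact of the 29 genes in vessels. It stood at 13.1 CPM in intact endothelium, 379 at day 1, 89.8 at day 3 and 53.5 at day 7, ratios of 28.8 (21.9 to 38.9), 6.84 (5.13 to 9.29) and 4.07 (2.96 to 5.69). At day 1, 645 of 1058 cells held a UMI and no cell gave over 0.978% of them. At equal depth of 1000 UMIs the gene was found in 1.44, 28.3, 6.19 and 3.68% of cells, and unthinned in 3.69, 61.0, 20.4 and 9.90%. In the same day 1 library neutrophils stood at 2.94 CPM and fibroblasts at 1.83 CPM, with no cell of either positive after thinning (250 and 133 cells, Clopper-Pearson upper limits of 1.46 and 2.74%), and median depths were 3980 UMIs in endothelium, 5679 in neutrophils and 7295 in fibroblasts. The endothelial share was thus above that of neutrophils and fibroblasts of the same library. Soat1 was also past 2-fold higher in endothelium, with 3.61 CPM in intact cord, 10.2 at day 1 and 9.24 at day 3. Mylip was past 2-fold lower there at day 1, with 5.29 CPM, against 11.3 CPM in intact cord.

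After injury Ch25h was also higher in microglia than in macrophages. Microglia stood at 7.77 CPM in intact cord, 145 at day 1, 86.2 at day 3 and 83.1 at day 7, while macrophages stood at 16.0, 13.1, 6.68 and 15.8 CPM, the first from 4 UMIs. Thinned shares of positive microglia were 0.746, 9.91, 5.99 and 5.85%, against 1.37, 39.8, 27.4 and 19.6% unthinned. Among intact microglia only 22 UMIs in 11 cells were seen, 31.8% of them in 1 cell, so the ratios of 18.7 (12.3 to 29.8), 11.1 (7.31 to 17.7) and 10.7 (7.04 to 17.1) rest on a low base. Microglia were also deeper at day 1, with a median of 11142.5 UMIs, than in intact cord with 3269.5.

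Nceh1 of phagocytes was past 2-fold higher at each day after injury, and Soat1 was above intact but under 2-fold. Nceh1 stood at 15.2 CPM in intact phagocytes, 35.3 at day 1, 71.1 at day 3 and 45.3 at day 7, ratios of 2.33 (1.74 to 3.19), 4.69 (3.52 to 6.39) and 2.99 (2.23 to 4.10). Soat1, which forms the cholesterol esters that fill lipid droplets, stood at 68.1, 99.2, 126 and 96.7 CPM by total UMIs, and its log2 ratios were 0.54, 0.88 and 0.51 by total UMIs and 0.93, 1.51 and 1.19 by TMM. In microglia alone Soat1 read 66.0, 71.3, 70.5 and 85.8 CPM, and in macrophages 95.9, 136, 170 and 140 CPM. Nceh1 read 14.5, 30.8, 38.9 and 39.0 CPM in microglia and 24.0, 41.1, 97.2 and 68.9 CPM in macrophages. Macrophages were above microglia for both genes at days 1, 3 and 7, and both genes were highest in macrophages of day 3.

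Nr1h3, the LXR alpha receptor that switches on export genes, was higher in macrophages than in microglia. It stood at 4.00 CPM (1 UMI) in intact macrophages, 10.0 at day 1, 30.5 at day 3 and 11.5 at day 7, and at 2.47, 0.605, 3.59 and 2.07 CPM in microglia. Over all phagocytes the day 3 level was 18.5 CPM, against 2.58 CPM from 8 UMIs in intact cord. Mylip, a ubiquitin ligase that LXR induces and that removes lipoprotein receptors, went the other way, with 123, 42.7, 57.3 and 74.5 CPM from intact cord to day 7. By total UMIs its ratios were 0.349 (0.311 to 0.392) at day 1 and 0.467 (0.420 to 0.521) at day 3, and by TMM the log2 ratios were -1.13 and -0.48. Thinned shares of Mylip in microglia alone were 13.9, 6.14, 7.87 and 7.91% from intact cord to day 7. Stard4, a sterol carrier, stayed between 3.27 and 5.50 CPM in phagocytes and between 46.1 and 64.7 CPM in endothelium.

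The storage genes as a group had 2 of 5 higher and 1 lower in phagocytes at days 1 and 3, and 2 higher and 0 lower at day 7. All genes had 15.4, 9.98 and 6.79% higher and 23.1, 29.1 and 27.6% lower at these days. With 5 genes, the group's median log2 ratio was that of Soat1 given above, 0.54, 0.88 and 0.51 at these days. Over all genes the medians were -0.19, -0.47 and -0.57.

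**Figure D3:**
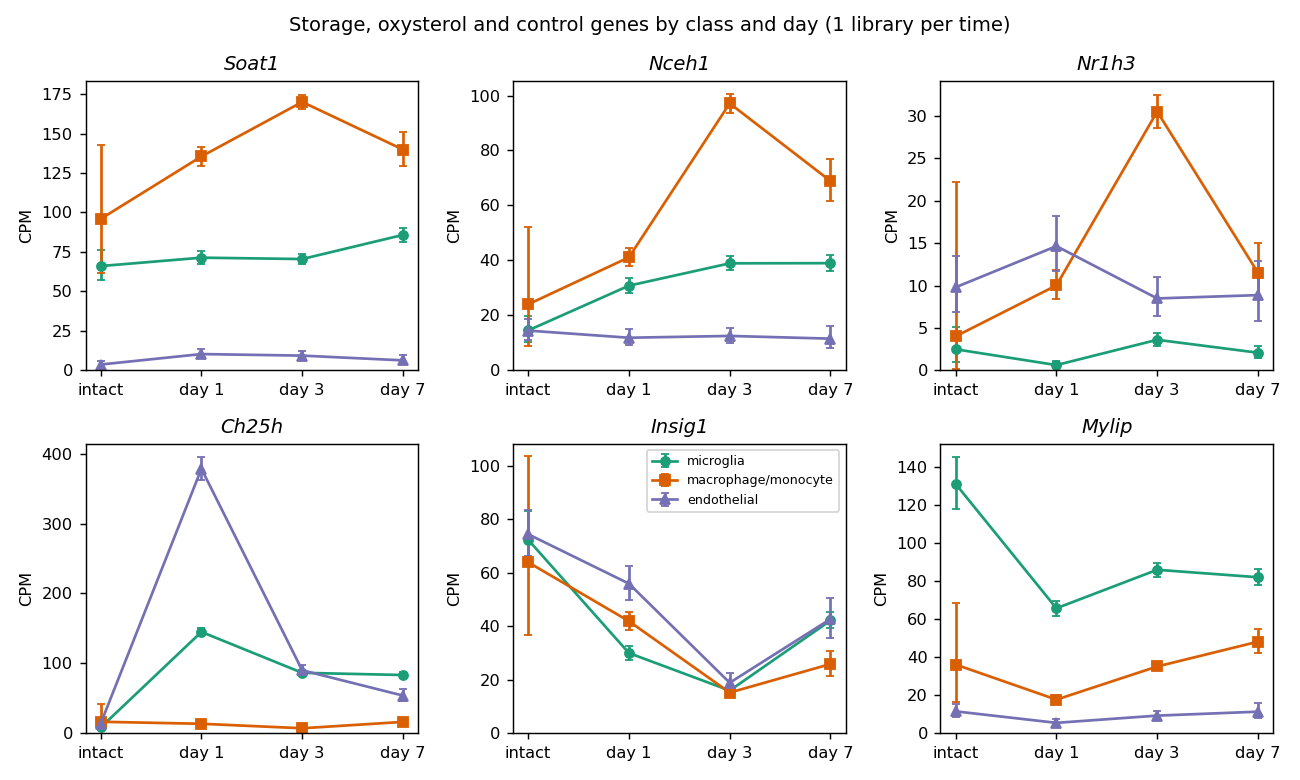
CPM of Soat1, Nceh1, Nr1h3, Ch25h, Insig1 and Mylip (panels) in intact cord and at days 1, 3 and 7 in microglia, macrophages and endothelial cells (lines), with 95% counting intervals. Soat1, Nceh1 and Nr1h3 are highest in macrophages at day 3 (170, 97.2 and 30.5 CPM), and Ch25h is highest in endothelium at day 1 (379 CPM).

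Synthesis genes of phagocytes were level at day 1 and lower at days 3 and 7 by total UMIs, but the sum depends on the scaling. The sum's ratios to intact were 1.01 (0.942 to 1.08), 0.660 (0.617 to 0.706) and 0.627 (0.584 to 0.674). Of the enzymes measured, 2 of 18 were at least 2-fold higher and 0 lower at day 1, 0 of 18 and 9 at day 3, and 0 of 17 and 6 at day 7. Over all genes, 15.4, 9.98 and 6.79% were higher and 23.1, 29.1 and 27.6% lower at these days. Median log2 ratios were 0.084, -1.01 and -0.76, against the -0.19, -0.47 and -0.57 over all genes given above. TMM scaling moved all genes of phagocytes by 0.39, 0.62 and 0.68, and the sum then stood at log2 ratios of 0.40, 0.022 and 0.0096. Past 2-fold it left 3 higher and 0 lower at day 1, 2 and 1 at day 3, and 0 and 0 at day 7, against 23.5, 20.6 and 15.7% of all genes higher and 15.4, 14.1 and 9.06% lower. At day 3 the enzymes' median with TMM was -0.38, against 0.15 over all genes.

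Relative to all genes, the day 3 phagocytes were low in enzymes along the pathway. Idi1 stood at 9.68 CPM in intact cord, 11.1 at day 1, 3.23 at day 3 and 4.18 at day 7, and Fdps at 29.7, 32.9, 11.8 and 15.5 CPM. Msmo1 stood at 44.2, 30.4, 18.2 and 22.0 CPM. Acat2, Sqle, Lss, the lanosterol synthase, Cyp51, Sc5d, a sterol desaturase, and Dhcr7, which makes cholesterol in the last step, were also past 2-fold lower at day 3 by total UMIs, with ratios of 0.280 to 0.485. With TMM only Lss remained past 2-fold lower (log2 ratio -1.21, 10 UMIs in intact cord), while Idi1 read -0.96, Acat2 -0.86, Fdps -0.71 and Msmo1 -0.66.

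Other enzymes did not share this. Ebp stood at 77.8, 78.8, 69.9 and 55.7 CPM. Pmvk, phosphomevalonate kinase, stood at 19.4, 26.8, 22.4 and 18 CPM, and Mvk, mevalonate kinase, at 4.84, 6.09, 7.78 and 5.11 CPM. Mvd, the decarboxylase, stood at 7.42, 18.2, 9.66 and 8.48 CPM and was past 2-fold higher at day 1. At day 1 it was higher in macrophages, with 28.6 CPM, than in microglia, with 9.67 CPM. Nsdhl, Tm7sf2 and Fdft1 stayed within 2-fold at all 3 days.

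Among the control genes of phagocytes Insig1 stood at 72.0 CPM in intact cord, 35.3 at day 1, 15.6 at day 3 and 38.8 at day 7. Its day 3 log2 ratio was -2.21 by total UMIs and -1.59 by TMM, the lowest of the 29 genes under both. Insig2 stood at 52.0, 26.7, 26.7 and 22.4 CPM, and Srebf2 at 12.9, 14.3, 5.65 and 5.71 CPM. With TMM both were within 2-fold at each day. Scap, with 11.9, 11.8, 6.01 and 6.26 CPM, and Srebf1, with 7.42, 13.2, 8.37 and 9.84 CPM, stayed under 2-fold by total UMIs. Thinned shares of Insig1 in microglia alone were 5.97, 2.97, 1.88 and 4.40% from intact cord to day 7.

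Microglia alone gave the same picture as all phagocytes. Their sum stood at 293 CPM (273 to 313) in intact cord, 286 (278 to 294) on day 1, 203 (197 to 209) on day 3 and 191 (184 to 197) on day 7. At day 3, 7 of 18 enzymes were past 2-fold lower and 0 higher, against 22.1% lower and 10.5% higher of all genes. With TMM 1 was lower and 1 higher, against 10.6% lower and 18.4% higher of all genes. The day 7 log2 ratio of the sum was -0.62 by total UMIs and 0.045 by TMM. At day 3, 18.5% of microglia had cycling markers, against 0.373% in intact cord, and without them the day 3 log2 ratio was -0.64, against -0.53 with them. At day 7, 4 of 17 were lower and 0 higher, against 27.2 and 7.28% of all genes. Macrophages stood at 372 CPM (300 to 455) in the 58 intact cells, 318 at day 1, 195 at day 3 and 177 at day 7. Of all 29 genes in macrophages, 3 of 28 measured were higher and 7 lower at day 1, 3 and 16 of 29 at day 3, and 2 and 11 of 22 at day 7, against 9.99, 7.54 and 7.62% higher and 29, 38.9 and 24.0% lower of all genes.

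Between MPSS and PBS the enzyme levels of oligodendrocytes by total UMIs differed in one direction by a small step. The synthesis sum was 1331 CPM in 377 cells with MPSS and 1667 CPM in 212 cells with PBS, a ratio of 0.799 (0.769 to 0.829). Of the 17 measured enzymes 0 were above their PBS level, and 3 were past 2-fold lower and 0 higher, against 2.54% lower and 1.44% higher of all genes. The median log2 ratio of the enzymes was -0.31, against -0.06 over all genes. TMM moved the ratios by 0.08, after which 3 of 17 were above PBS and the median was -0.22, against 0.02 over all genes. Thinned shares of cells went both ways, with Sqle in 14.6% with MPSS and 11.7% with PBS, and Tm7sf2 in 5.51 and 14.8%. Any synthesis gene was found in 66.4% (61.3 to 71.2) of thinned cells with MPSS and 68.4% (61.4 to 74.8) with PBS.

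Hmgcs1 was the enzyme with most UMIs past 2-fold, at 51.1 CPM with MPSS and 121 CPM with PBS, a ratio of 0.421 (0.356 to 0.496). It was found in 122 of 377 MPSS cells and 89 of 212 PBS cells, and 1 PBS cell held 15.5% of its PBS UMIs. Thinned shares were 4.68% (2.75 to 7.39) with MPSS and 9.18% (5.53 to 14.1) with PBS, against 0.287 and 0.559% in phagocytes of these libraries. Acat2 and Hsd17b7 were the others, each from 16 or fewer UMIs per library. Cyp51 read 181 CPM with MPSS and 257 CPM with PBS, Fdps read 190 and 234 CPM, and Tm7sf2, a sterol reductase, 111 and 137 CPM. Fdft1 read 49.3 and 49.6 CPM and Ebp 58.6 and 59.6 CPM, a difference within counting error. Srebf2 was the 1 measured member of the 29 above its PBS level, with 54.9 CPM with MPSS and 41.9 CPM with PBS.

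**Figure D4:**
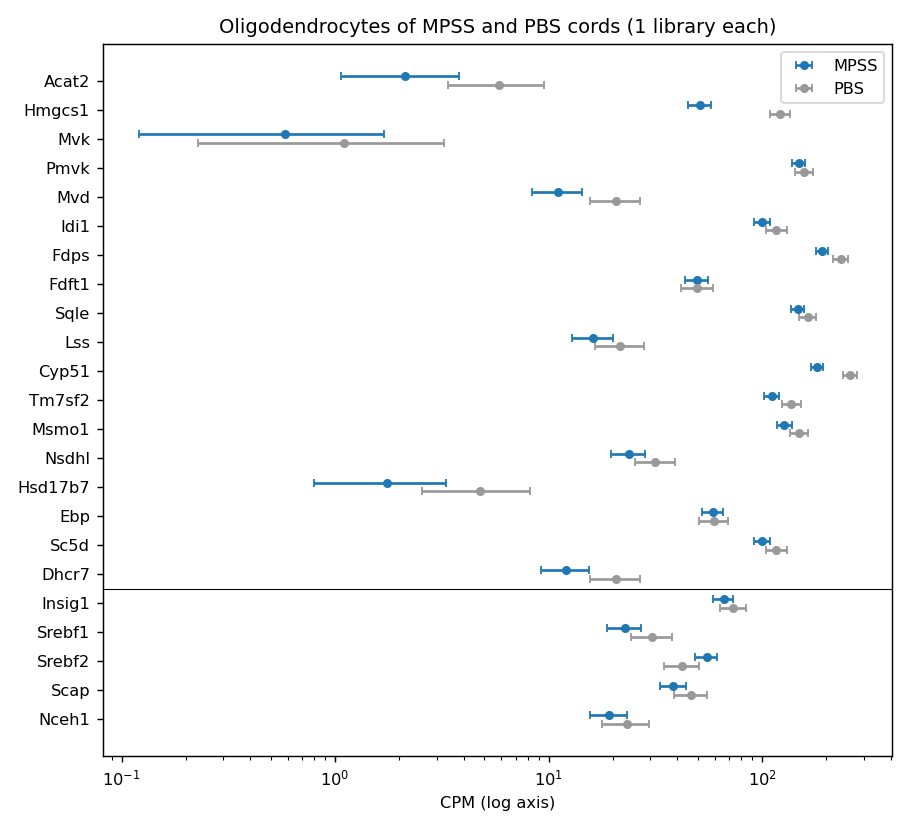
CPM on a log axis of the 18 synthesis genes, Insig1, Srebf1, Srebf2, Scap and Nceh1 in oligodendrocytes, MPSS beside PBS, with 95% counting intervals. MPSS points lie left of their PBS points for all but Srebf2, and Hmgcs1 reads 51.1 and 121 CPM.

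Phagocytes and fibroblasts of the injected cords differed by less than the oligodendrocytes did. Schwann cells, whose sums are given above, were lower with MPSS by more, and T/NK cells read 301 CPM (227 to 392) in 51 cells with MPSS and 414 CPM (319 to 527) in 42 cells with PBS. Both comparisons rest on under 50 cells with PBS. In phagocytes the sum was 253 CPM with MPSS and 273 CPM with PBS, a ratio of 0.925 (0.879 to 0.974), and 0 of 27 measured genes were past 2-fold, against 2.09% higher and 1.97% lower of all genes. Microglia had a ratio of 0.983, with 0 of 24 genes past 2-fold (2.3% higher and 1.73% lower of all genes), and macrophages of 0.934, with 1 of 26 higher and 0 lower (1.89 and 2.19%). Fibroblasts had a ratio of 1.01, with 0 of 22 higher and 1 lower (1.72 and 3.97%), which was Insig1 at 9.29 CPM with MPSS and 20.6 CPM with PBS. Ch25h stood at 143 CPM with MPSS and 247 CPM with PBS in phagocytes, and at 271 and 475 CPM in microglia, where thinned shares were 20.3% (15.9 to 25.2) and 32.9% (26.8 to 39.4), beside 3.03 and 2.80% in fibroblasts. In macrophages it stood at 79.0 and 117 CPM, in fibroblasts at 31.9 and 61.1 CPM, and in oligodendrocytes at 0.777 and 2.21 CPM. Insig1 read 16.3 CPM with MPSS and 25.1 CPM with PBS in phagocytes. Soat1 (9.68 and 10.6 CPM), Nceh1 (18.1 and 18.7 CPM), Nr1h3 (16.2 and 16.6 CPM) and Mylip (38.9 and 38.2 CPM) did not differ by more than 1.2-fold.

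Phagocytes with a UMI of Gpnmb, a marker of lipid-laden phagocytes, were set beside those without, within each library. The positive cells were 322 of 4441 at day 1, 3973 of 6681 at day 3, 2293 of 5113 at day 7, 967 of 1073 with MPSS and 662 of 731 with PBS. They were deeper in every library, with medians of 5705.5 against 5335 UMIs at day 1 and 12834 against 3853.5 with MPSS, and held fewer microglia in the time course (29.2 against 71.0% at day 3) but more in the injected cords (29.8 against 17.0% with MPSS). The part of depth and of microglial share in the values that follow was not tested.

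Gpnmb-positive phagocytes were higher in Nr1h3, Nceh1 and Soat1. Nr1h3 stood at 13.5 CPM in positive and 4.40 CPM in negative cells at day 1, at 24.6 and 5.63 CPM at day 3 and at 6.37 and 1.05 CPM at day 7, ratios of 3.06 to 6.04. In the injected cords negatives held 2 UMIs with MPSS and 1 with PBS, so the ratios of 4.66 (1.28 to 38.7) and 6.16 (1.09 to 245) are loose. Nceh1 stood at 66.8 and 32.9 CPM at day 1, 87.3 and 36.7 CPM at day 3, and 58.7 and 28.7 CPM at day 7. Soat1 stood at 184 and 92.9 CPM, 150 and 73.9 CPM, and 118 and 70.8 CPM. Both genes were thus higher in the positive cells of all 3 injured time-course libraries.

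Ch25h was lower in Gpnmb-positive cells at days 1 and 3, and by little at day 7, and the synthesis sum was lower in each injured library. Ch25h stood at 42.2 CPM in positive and 85.4 CPM in negative cells at day 1, at 29.6 and 67.5 CPM at day 3, and at 64.7 and 73.3 CPM at day 7. The synthesis sum had ratios of 0.768, 0.909 and 0.836 at days 1, 3 and 7, 0.626 with MPSS and 0.634 with PBS. The median log2 ratio over all genes was also below 0, at -0.22, -0.12, -0.14, -0.33 and -0.28 in the same order. The day 3 sum lay close to the median of all genes. Of the measured members, 2 of 29 were past 2-fold higher and 4 lower at day 1, 3 and 1 of 29 at day 3, 2 and 0 of 28 at day 7, 2 and 4 of 26 with MPSS and 2 and 5 of 26 with PBS. All genes had 2.85, 3.89, 2.87, 6.76 and 8.1% higher and 10.0, 8.8, 5.05, 20.1 and 19.1% lower.

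**Figure D5:**
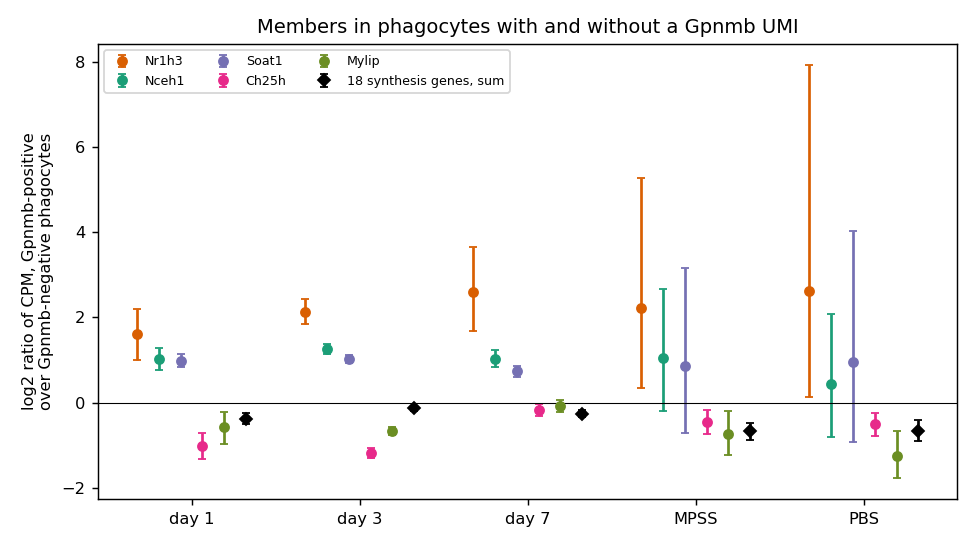
Log2 ratio of CPM in Gpnmb-positive over Gpnmb-negative phagocytes of each injured library for Nr1h3, Nceh1, Soat1, Ch25h, Mylip and the sum of the 18 synthesis genes, with 95% counting intervals. Nr1h3 lies above 0 in every library (1.61 to 2.62), and the synthesis sum lies below 0.

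Neighbouring pathways were read from lists of other genes, by total UMIs. Single genes named here without a count of their list in that class do not stand for the list. Of the fatty acid targets of SREBP in day 1 ependymal cells, 1 of 11 measured was past 2-fold higher and 2 lower, near the 12.6 and 16.0% of all genes, and the median log2 ratio was -0.55, against -0.14 over all genes. In day 1 endothelium 3 of 12 were higher and 1 lower, against 11.9 and 11.8% of all genes, among them Me1, which makes NADPH, at 7.59 CPM at day 1 and 2.06 CPM in intact cord, and Acsl3, an acyl-CoA synthetase, at 15.9 and 34.5 CPM. In phagocytes Scd2, a fatty acid desaturase, was past 2-fold higher at each day, with 13.2 CPM in intact cord and 26.8, 30.1 and 36.5 CPM at days 1, 3 and 7, and Mid1ip1, an activator of fatty acid synthesis, was lower with 126, 52.9, 57.6 and 59.0 CPM. In oligodendrocytes 0 of 7 measured were above PBS with MPSS, with a median of -0.22, against -0.06 over all genes. The share of all genes above PBS was not taken.

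The isoprenoid branch, which uses farnesyl diphosphate for prenylation, ubiquinone and dolichol, included Coq2 and Nus1, past 2-fold higher at day 1. Nus1, a subunit of the dolichol-forming transferase, stood at 176 CPM in day 1 endothelium and 34.3 CPM in intact endothelium, a ratio of 5.14 (4.29 to 6.21). Coq2, of ubiquinone synthesis, read 41.8 CPM at day 1 and 5.81 CPM in intact phagocytes, and 41.1 and 9.42 CPM in ependymal cells. Pggt1b, a prenyltransferase subunit, was lower in phagocytes with 24.8 CPM in intact cord and 7.03, 2.81 and 2.90 CPM at days 1, 3 and 7. In phagocytes 3 of 10 were past 2-fold higher and 1 lower at day 1, 1 and 1 at day 3, and 1 and 3 at day 7. All genes had 15.4, 9.98 and 6.79% higher and 23.1, 29.1 and 27.6% lower, so most of these counts lie near or under that background.

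Of the sterol transport and sensing list, phagocytes had 1 of 19 higher and 3 lower at day 1, 3 and 3 at day 3, and 3 and 5 at day 7, with medians of -0.12, -0.16 and -0.42, against -0.19, -0.47 and -0.57 over all genes. The lower counts lie at or under the 23.1, 29.1 and 27.6% of all genes, of which 15.4, 9.98 and 6.79% were higher. The higher genes at days 3 and 7 were Abcg1, a sterol exporter induced by LXR, Lipa, the lysosomal lipase that frees cholesterol from esters, and Gramd1b, a sterol carrier at membrane contacts. Abcg1 stood at 62.1 CPM at day 3 and 89.8 CPM at day 7, against 29.4 CPM in intact cord. Lipa stood at 158 and 121 CPM, against 60.0 CPM. Cyp27a1, which makes a side-chain oxysterol in mitochondria, was lower at 1.72, 6.67 and 10.1 CPM at days 1, 3 and 7, against 27.1 CPM in intact cord. In day 1 ependymal cells Abcg1 read 2.26 CPM, against 27.1 CPM in intact cord, and Vldlr, a lipoprotein receptor, 11 CPM, against 56 CPM.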

How the data were processed

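Droplet (10x) single-cell RNA libraries of 6 groups, 1 library each, were analysed as deposited UMI counts per gene and cell. The authors made these counts with Cell Ranger: the submitters' processing notes name version 3.0.2, and the matrix headers with MPSS and PBS name 3.1.0. The genome build and the way cells were called are not given in the sources used here. No other values were used.

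A cell needed 200 or more genes, 500 or more UMIs, and no more than 20% of its UMIs from mitochondrial genes, which removed cells only from the MPSS and PBS libraries (2091 of 2339 and 1377 of 1513 kept, 23577932 and 15855840 UMIs). The time-course libraries held 9661552 UMIs in intact cord and 50635770, 72515788 and 30470794 at days 1, 3 and 7. A cell took the class with the highest share of markers detected, with at least 3 markers and 0.25 of the list. Cells with an unrelated second class at 0.6 of the best or more were left out as possible doublets, and no caller was run. Counts were summed per class and library and scaled to CPM. Levels carry exact Poisson, ratios exact binomial and shares Clopper-Pearson intervals. Where a sum was 0, a floor of 3 counts over the class was used. Simulated counts with known ratios were used to check the interval step. Values are printed for chosen members, mainly those with the highest counts of each role and those past 2-fold. Not every member past 2-fold is printed or counted for every class.

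Members, gene lists, markers, tests and alternatives were chosen with earlier results of these data known. The ependymal, oligodendrocyte and day 1 microglia comparisons of the sum, the Gpnmb split at day 1, the stricter ependymal gate and the counts of enzymes under other scalings were chosen after seeing the data. The 3 neighbouring gene lists hold 14, 10 and 20 genes. Gene names in the time-course intact and day 1 tables were respelled for 2104 names, and 77 names found only there were left out. Alternatives are listed with their effect in the closing section. Python 3.11.15, numpy 2.4.6, scipy 1.17.1, pandas 2.3.3, matplotlib 3.10.9, R 4.3.3 and edgeR 4.0.16 (TMM factors only) were used.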

Additional observations from a re-analysis of the deposited data

Results flagged for a closer look

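In endothelial cells the synthesis genes went in opposite directions at different days, against the same intact library. The log2 ratio of their sum was 0.43 at day 1, -0.47 at day 3 and -0.46 at day 7. Sqle had log2 ratios of 1.39 at day 1 and -1.24 at day 7, and Hsd17b7 of 1.85 at day 1 and -1.07 at day 7, the last from 6 UMIs at day 7 and 16 in intact cord. The difference between days was not tested, because each day is 1 library. These signs were the same with TMM and with median-of-ratios scaling for the sum (0.52 at day 1, -0.25 and -0.28 at days 3 and 7 with TMM).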

How the results depend on the processing

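No paired analysis was possible because each group is 1 library and every title carries the same replicate number. No replicate could be left out. Of 168 alternative values of the synthesis sums, 133 stayed within their counting interval and direction, 32 moved out of it and 3 turned. Of 890 such values of single members the numbers were 811, 78 and 1. The 3 turned sums leave out sign changes of sums near their reference, as in microglia at day 1 and with MPSS against PBS. Scaling had the largest reach. The sums' log2 ratios at days 1, 3 and 7, of 0.01, -0.60 and -0.67 in phagocytes, became 0.40, 0.022 and 0.0096 with TMM (both later days turned) and 0.21, -0.13 and -0.089 with median of ratios. In microglia -0.04, -0.53 and -0.62 became 0.33, -0.022 and 0.045 (day 7 turned) and 0.10, -0.17 and -0.043, and in endothelium 0.43, -0.47 and -0.46 became 0.52, -0.25 and -0.28 with TMM, and -0.27 and -0.27 at days 3 and 7 with median of ratios. For oligodendrocytes with MPSS against PBS, -0.32 became -0.24, -0.27 and, as a mean over cells, -0.19, and for ependymal cells at day 1, 1.17 became 1.34 and 1.31. Without mitochondrial and ribosomal protein genes in the total, values were 0.11 and -0.39 for microglia at days 1 and 3, -0.33 for endothelium at day 3 and 1.29 for ependymal cells. Thinned to 1000 UMIs, they were -0.56 for phagocytes at day 7, 0.087 for microglia at day 1, 0.18 for microglia with MPSS against PBS, and 0.55 and -0.30 for endothelium at days 1 and 3. Without cycling cells microglia at day 3 read -0.64, and without the member of highest level phagocytes, microglia and endothelium at day 3 read -0.79, -0.70 and -0.59. Over all classes of the time course, pairs of a member and a class past 2-fold, 44 higher and 84 lower, became 69 and 42 with TMM, 50 lower with median of ratios, and 77 and 142 at 1.5-fold. For MPSS against PBS, 1 higher and 4 lower became 3 higher at 10 UMIs or with no minimum, and 3 and 18 at 1.5-fold. Thinning turned Mylip in ependymal cells at day 1 to 1.31, from 7 and 13 UMIs. The cause was not tested beyond what each setting changes by its construction. Depth limits members under 20 UMIs, and the classes under 50 cells.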
